A study of Mus musculus with 6 samples.

Results

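The interleukins, their receptors and their soluble inhibitors were followed on 6 one-colour arrays of mouse aortic arch RNA. The members were the probes, control spots left out, whose gene name in the scanner files begins with Il and a digit. They stood for 80 genes among the 34821 gene names on the array, and numbered 102 of 55681 probes. Of the 80 genes, 36 encode ligands, 37 encode receptor chains, 6 encode antagonists or decoys and 1, Il4i1, encodes an enzyme induced by interleukin 4. A name decided membership, so Il4i1, Il16 and Il34 are included although they do not belong to the classical interleukin families. Partner genes named otherwise, such as Csf2rb and Lifr, are described separately.

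Both groups were female mice with the strain label C57BL/6 and a Mir21+/+ genotype in all host cells. Each recipient had been irradiated with X-rays, 5 Gy in each of 2 fractions given within 4 h, and had then received donor marrow. The knockout marrow group carried marrow of Mir21-/- donors, and the wild-type marrow group carried marrow of Mir21+/+ donors. A high-fat diet started 3 weeks after irradiation and went on for 12 weeks, after which RNA of the aortic arch was labelled with Cy3 (100 ng per sample, RNA integrity number above 7.5). Each group held 3 arrays, and the series design gives 3 mice per group. The groups thus differed in the cells that descend from marrow, while vessel wall and fat cells of the host carried Mir21 in both groups. The labels do not say how far donor cells replaced host cells in each mouse.

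Interleukins are secreted signals by which leukocytes and tissue cells instruct each other. The type I and type II cytokine families bind receptor chains that activate Janus kinases and STAT factors, while the IL-1 and IL-17 families signal through adaptors to NF-kappaB. Decoy receptors and binding proteins hold several of them in check. In the arterial wall IL-1beta and IL-18 are known as products of inflammasome activation in macrophages, IL-6 trans-signalling acts through gp130 on most cells, IL-33 is released by damaged stromal and endothelial cells, and IL-10 restrains macrophages.

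The microRNA removed from the donor marrow is shown with its seed, bases 2 to 8, in capitals. RefSeq places it on the minus strand of GRCm38.p6 at chr11:86584120-86584141.
mmu-miR-21a-5p: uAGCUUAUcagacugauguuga

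The probes on which the results turn were 60 bases long, and 30 bases of each are printed, 5′ to 3′, as the scanner files give them. Probes of a gene are numbered along the genome, all lie on the plus strand of mm9, and capitals mark an uninterrupted run of alternating T and G. The first 10 show how probes of 1 gene can sample different stretches. The last 2 are the tested probes of Il33 and Il22ra1, the genes called at an unadjusted p under 0.05.
Il1rl1 probe 1 (chr1:40504769-40504828): ctctgtaacaggatcttttgtctagatttc
Il1rl1 probe 2 (chr1:40520014-40520073): ccttacccaaattgccattacagtcgagca
Il1rl1 probe 3 (chr1:40522187-40522246): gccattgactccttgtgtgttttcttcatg
Il1rap probe 1 (chr16:26701498-26701557): gatgttgtcaacgcctttgtttctaaatgt
Il1rap probe 2 (chr16:26716515-26716574): catacatctttcagtagtcattggcaaaat
Il1rap probe 3 (chr16:26725291-26725350): ccattttctttaaccagctcttccttgatc
Il4ra probe 1 (chr7:132712550-132712609): tgccagcacTGTGTGTGTGTGccacatgga
Il4ra probe 2 (chr7:132722922-132722981): acctgttgggaattccaaccctcaccagtc
Il15ra probe 1 (chr2:11654809-11654868): aaaccatggaaacagtaccaatgactgtga
Il15ra probe 2 (chr2:11655416-11655475): atatgtaTGTGTGTGTGTGTGTGTatgtaa
Il33 (chr19:30035101-30035160): gtgaatctgtacgatatctttaaagtagta
Il22ra1 (chr4:135307221-135307280): tccacagaactggactctcttttcaaaggc

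The letters TGTGTGTGTG, read as written, occurred in 2 of the 102 member probes, Il4ra probe 1 and Il15ra probe 2, and in 0.316% of all probes on the array. Counting both strands, the share over all probes was 0.476%. The 7 letters that pair with the miR-21 seed, ATAAGCT, occurred as written in 1 member probe, that of Il2ra, against 0.296% of all probes. Their reverse complement, AGCTTAT, occurred in 3 member probes, of Il17d, Il1rl1 and Il31ra, against 0.327% of all probes. A match is a description of the probe's 60 bases and covers no other stretch of the transcript.

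Across the arrays 66.4% to 74.4% of spots were well above background and 0 were saturated. Knockout replicate 3 had the fewest such spots and was the dimmest array, with a 75th percentile signal of 239 against 329 to 407 on the others. The weights that limma's arrayWeights gave ran from 0.345 for knockout replicate 1 to 2.42 for wild-type replicate 3. Wild-type arrays lay in 1 row of the slide and knockout arrays in the other, so row and group cannot be told apart. Every value below is a log2 signal from which the array's 75th percentile was taken, so 0 marks that percentile. A positive difference means a higher level with knockout marrow. No level of 1 probe can be set against that of another. Smooth muscle markers, which define the media of the arch, were tested 8 of 8, while 0 probes were named for Mir21, which leaves the deletion unchecked on these arrays. Fat genes separated the knockout arrays: the mean of 11 white adipocyte markers deviated from the 6-array mean by 1.21, -1.23 and -2.40 in knockout replicates 1 to 3, against 0.91, 0.26 and 1.25 in wild-type replicates 1 to 3. Members and pathway genes set beside these markers below are given with and without knockout replicates 2 and 3. In bulk tissue, fewer cells of a type and less RNA per cell cannot be told apart.

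Receptor chains were measured far more often than ligands. Testing required a probe that stood well above background on each array of one group or both, and such a probe existed for 30 of 37 receptor genes, 19 of 36 ligand genes and 3 of 6 antagonist or decoy genes. In all, 53 genes with 60 probes were tested. On all 6 arrays, 49 genes had a probe above background, and 17 genes had none on any array.

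**Figure D1:**
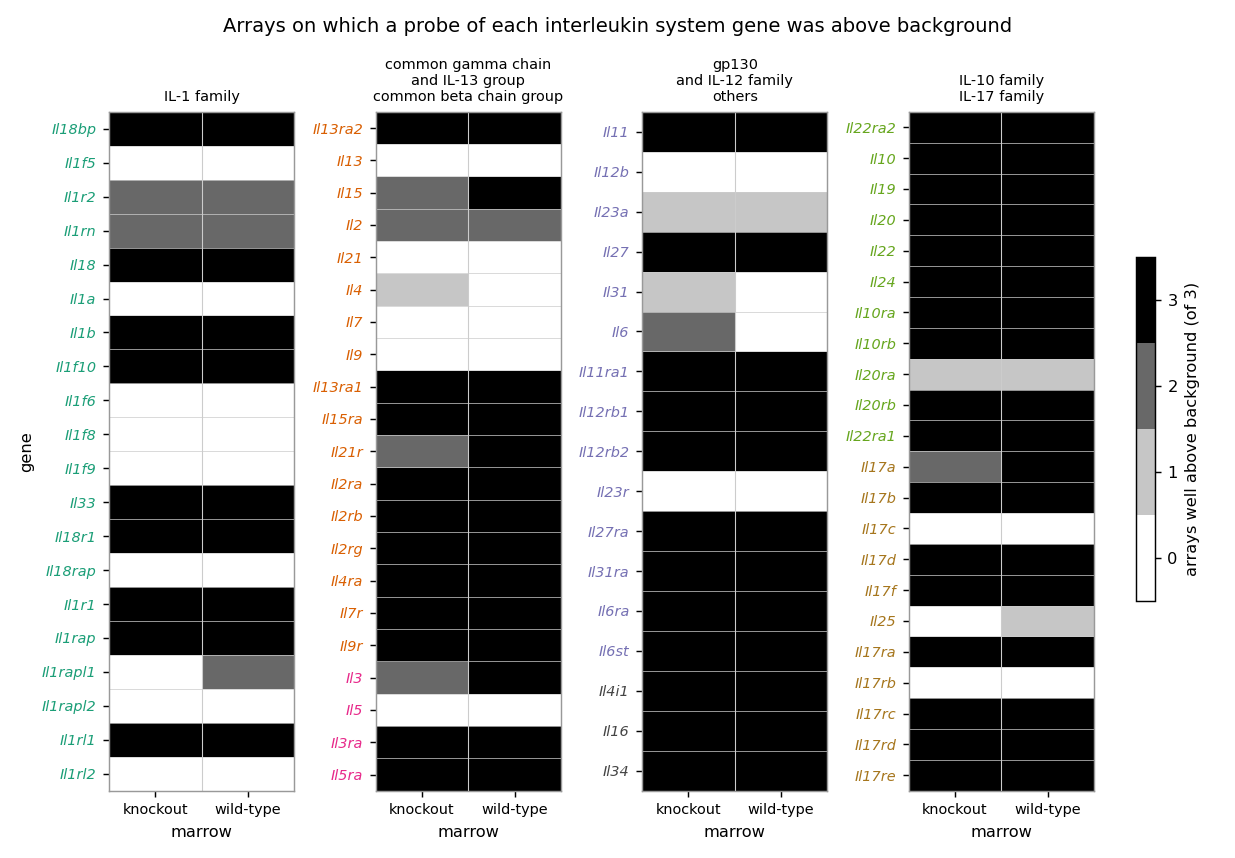
Number of arrays out of 3 per group (shade) on which at least 1 probe of each of the 80 genes (rows) was well above background, with knockout marrow in the left and wild-type marrow in the right column of each panel; names are coloured by family, and within a family antagonists or decoys come first, then ligands, then receptors. White rows are the 17 genes on no array, most of them in the IL-1 family and among the common gamma chain ligands.

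The 17 genes on no array included 11 ligands. They comprised the type 2 cytokines Il5, Il9 and Il13, the T cell cytokine Il21, the lymphocyte survival factor Il7, Il17c, the shared IL-12 and IL-23 subunit Il12b, and Il1a. The IL-36 group, listed as Il1f5, Il1f6, Il1f8 and Il1f9, was likewise below background, together with its receptor Il1rl2. The receptor chains Il17rb, Il18rap, Il23r and Il1rapl2 completed the 17. Il18rap is the accessory chain that IL-18 needs for signalling and Il23r the specific chain of the IL-23 receptor.

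A further 10 genes were above background on some arrays but never on all 3 of a group, and were not tested. Il6, the main ligand of gp130 signalling, lay at -3.82, -4.53 and -5.77 on the knockout arrays, against -5.57, -6.91 and -5.98 on the wild-type arrays. It was above background on 2 knockout arrays and 0 wild-type arrays. Knockout replicate 3 was itself below its array's lowest above-background signal, -4.47, so no fold is given. Every wild-type value lay below the knockout values of replicates 1 and 2, while knockout replicate 3 overlapped the wild-type range. The neuronal accessory receptor Il1rapl1 had 1 of its 3 probes above background on 0 knockout and 2 wild-type arrays. On that probe wild-type replicate 2, at -5.56, was below its array's lowest above-background signal, -4.86, so no fold is given. The IL-1 receptor antagonist Il1rn and the decoy receptor Il1r2 were above background on 2 arrays of each group. Il2 was above background on 2 arrays of each group, and Il23a and Il20ra on 1 of each. Il4 and Il31 were seen on 1 knockout array and Il25 on 1 wild-type array.

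Among the 53 tested genes, 0 passed the test adjusted over all probes (limma, Benjamini-Hochberg), as did 0.00261% of all 38341 tested probes, which is 1 probe. At an unadjusted p under 0.05, 1 gene, Il22ra1, was higher with knockout marrow, where 4.44% of all tested probes were higher. At the same threshold 1 gene, Il33, was lower, where 4.27% of all probes were lower. Counted by probe, as the background is, 1.67% of the 60 tested member probes were higher and 3.33%, those of Il33 and the dimmer probe of Il4ra, were lower, so each share rests on 1 or 2 probes. The p-values set each difference against the spread between these 3 mice per group, which limma moderated over all tested probes.

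All 3 knockout arrays lay above all 3 wild-type arrays for 4 genes, Il22ra1, Il1rap, Il18 and Il2rb, where the share over all probes was 7.58%. All 3 knockout arrays lay below the wild-type arrays for 5 genes, Il33, Il16, Il17rd, Il13ra2 and Il20, where the share over all probes was 6.14%. Among them Il2rb, Il17rd, Il13ra2 and Il20 were singled out after their values were seen. A log2 difference of 1 or more was found for 1 gene, Il18r1 (0.433% of all probes were that much higher), and 0 genes were lower by as much (1.99% of all probes). The median difference of the 53 genes was 0.05, against 0.02 over all tested probes, with 29 genes above 0 and 24 below. In size the difference stayed under 0.5 for 46 genes and reached it for 7. The 95% interval lay wholly within 1 of 0 for 41 genes and reached further for 12, so a 2-fold difference of those 12 genes was within their intervals.

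**Figure D2:**
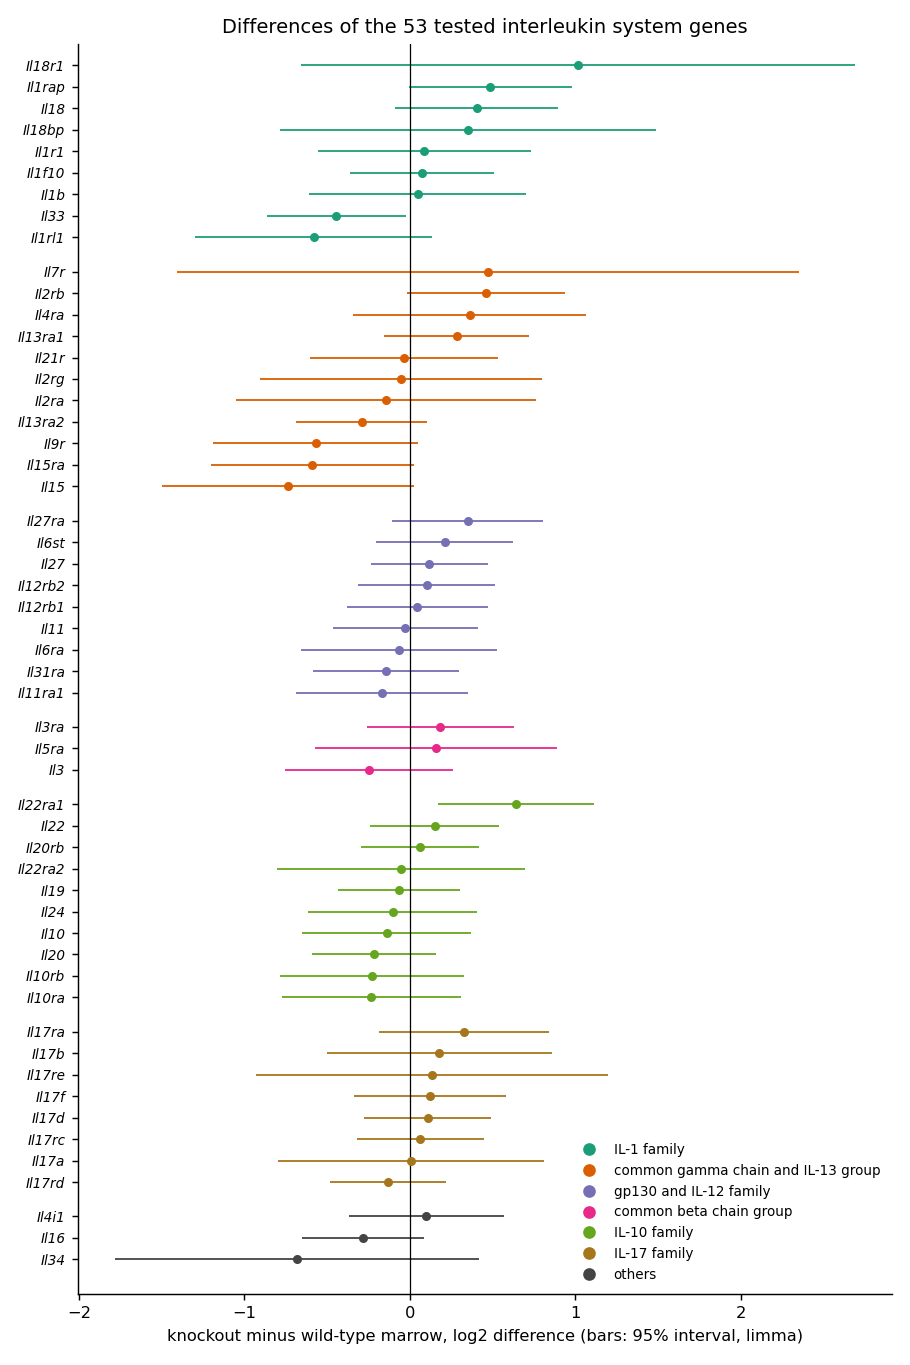
Log2 difference, knockout minus wild-type marrow, of the 53 tested genes (points, coloured by family and sorted within it), with 95% limma intervals as bars. The intervals of 2 genes, Il22ra1 and Il33, leave out 0, and those of Il18r1, Il7r and Il34 are wide.

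In the IL-1 family, 9 of 20 genes were tested. Il33 encodes a nuclear cytokine of stromal and endothelial cells that acts as an alarm signal on release. It lay at 0.73, 0.45 and 0.47 with knockout marrow, against 1.04, 0.76 and 1.19 with wild-type marrow. The groups did not overlap, but knockout replicate 1 and wild-type replicate 2 were nearly level. The means were 0.553 ± 0.157 with knockout marrow and 0.997 ± 0.218 with wild-type marrow (SD, n = 3 each), and the difference was -0.44 ± 0.18 (SE), which is 1.36-fold lower (limma, unadjusted p = 0.0404, adjusted p = 0.561). Leaving out knockout replicate 2 or 3, or wild-type replicate 1 or 3, ended the unadjusted call, with unadjusted p from 0.0970 to 0.149 (limma). Endothelial markers were tested 10 of 10, with a median difference of -0.26, and at an unadjusted p under 0.05 (limma) 2 were lower, Flt1 at -0.65 and Esam at -0.38, and 0 were higher. The mean of these markers deviated by 0.19, -0.14 and -0.46 in knockout replicates 1 to 3, against 0.17, 0.17 and 0.08 in wild-type replicates 1 to 3. Their summed level ran from 37.2 to 48.0 times the 75th percentile with knockout marrow and from 43.0 to 50.02 with wild-type marrow, with 0 markers on no array. The difference was above 0 for Cldn5 at 0.23, Erg at 0.16 and Kdr at 0.02, and below 0 for the other endothelial markers. Fibroblast markers, tested 8 of 8 with 0 on no array, had a median difference of 0.22. Their mean deviated by 0.06, 0.31 and -0.08 in knockout replicates 1 to 3, against 0.07, -0.41 and 0.04 in wild-type replicates 1 to 3. At an unadjusted p under 0.05 (limma) 0 of them were higher or lower. The part of endothelial cells and fibroblasts in the Il33 difference was not tested.

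The IL-33 receptor ST2 is encoded by Il1rl1. Probe 3, at the far end of the gene, read -1.86, -2.49 and -2.80 with knockout marrow, against -1.65, -2.29 and -1.47 with wild-type marrow. Knockout replicate 1 lay inside the wild-type range, and the other knockout arrays lay below it. The difference was -0.58 ± 0.31, with a 95% interval from -1.30 to 0.13 (limma, unadjusted p = 0.0963), and -0.38 without knockout replicate 3. Probe 1, designed on the transcript of the soluble receptor, and probe 2, on the same long transcript as probe 3, were above background on 0 arrays. The soluble and the membrane-bound form of ST2 could therefore not be compared.

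Il1rap, the accessory chain that the IL-1, IL-33 and IL-36 receptors share, read -2.08, -1.87 and -2.21 on probe 3 with knockout marrow, against -2.44, -2.26 and -2.91 with wild-type marrow. The groups did not overlap, and the difference was 0.49 ± 0.21 with an interval from -0.01 to 0.98 (limma, unadjusted p = 0.0525). Without wild-type replicate 3 it was 0.30. Its probe 1 read -2.46, -2.19 and -2.17 with knockout marrow, against -2.32, -2.36 and -2.42 with wild-type marrow, a difference of 0.09 ± 0.16. On that probe the groups overlapped, and probe 2 was above background on 0 arrays.

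Il18 encodes the inflammasome product IL-18, Il18r1 its receptor and Il18bp the protein that binds and blocks it. Il18 lay at -2.02, -2.56 and -2.72 with knockout marrow, against -2.83, -2.92 and -2.77 with wild-type marrow. The groups just failed to overlap, since knockout replicate 3 and wild-type replicate 3 were almost equal, and the difference was 0.40 ± 0.21 (limma, unadjusted p = 0.094), or 0.20 without knockout replicate 1. On all 6 arrays Il18r1 showed the difference of greatest size among the 53 genes, 1.02 ± 0.72, which is 2.02-fold higher with an interval from -0.66 to 2.69. Its arrays read -1.38, -4.15 and -2.05 with knockout marrow, against -2.91, -4.48 and -3.24 with wild-type marrow, so that replicate 2 of both groups was the lowest and the groups overlapped. The size rested on single arrays, with a difference of 0.44 when knockout replicate 1 was left out and 1.83 when knockout replicate 2 was. Leaving out wild-type replicate 2 gave 0.55. Il18bp read 0.18, 1.52 and -0.48 with knockout marrow, against 0.53, -0.26 and -0.10 with wild-type marrow. Knockout replicate 2 alone stood above the others, and the sign turned to -0.21 without it.

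Il1b, the macrophage cytokine IL-1beta, lay at -1.76, -1.16 and -1.78 with knockout marrow, against -1.77, -1.10 and -1.97 with wild-type marrow. Replicate 2 was the highest in both groups, and the difference was 0.05 ± 0.28 with an interval from -0.61 to 0.70. Its signalling receptor Il1r1 read 0.53, 1.41 and 1.45 with knockout marrow, against 0.86, 1.28 and 0.99 with wild-type marrow. Knockout replicate 1 was the lowest array and the other knockout arrays were the highest, with a difference of 0.09 ± 0.28. The remaining tested ligand, Il1f10, differed by 0.07 ± 0.19.

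**Figure D3:**
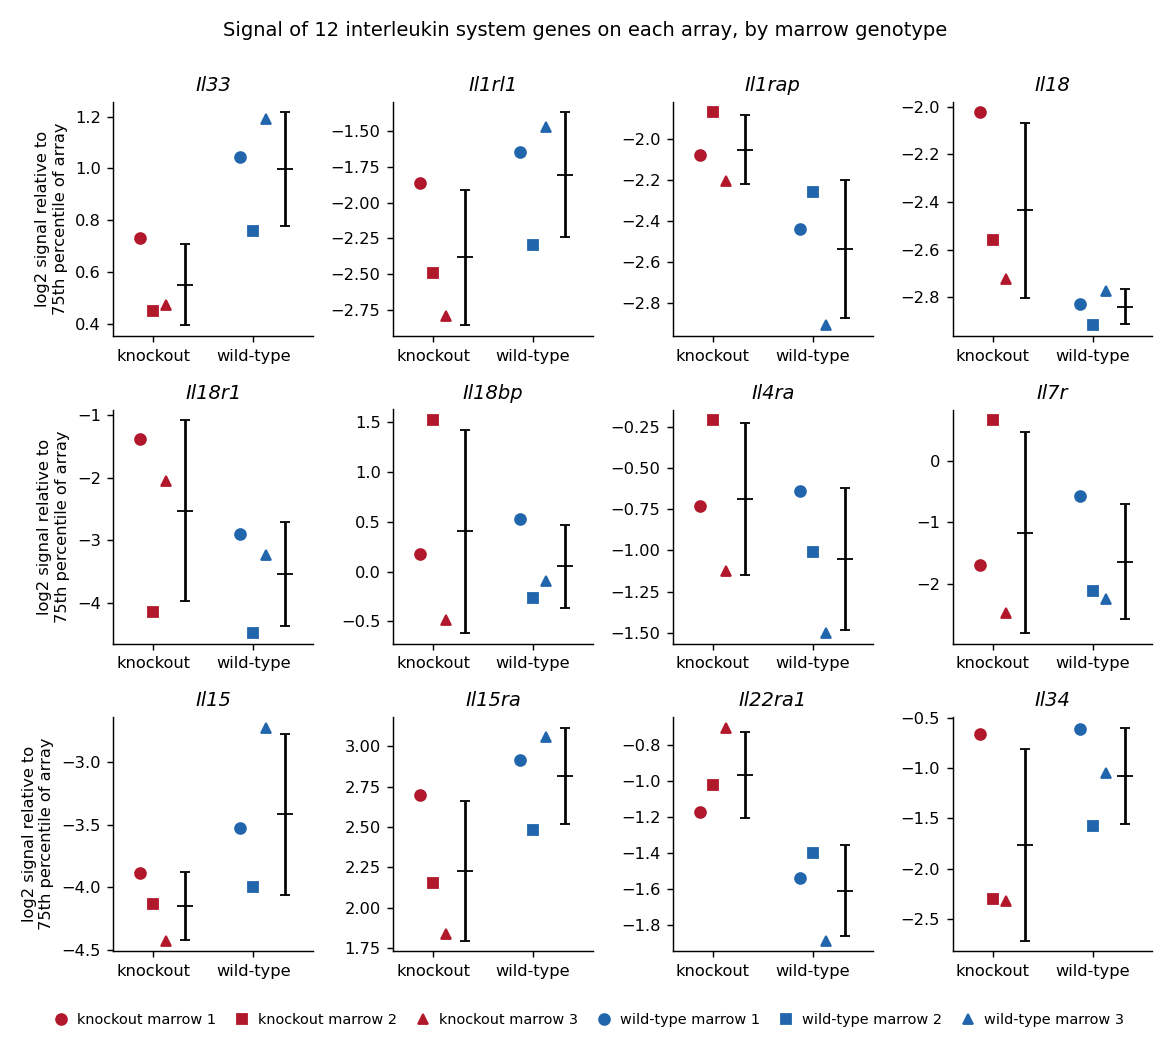
Log2 signal relative to the array's 75th percentile of 12 genes on each of the 6 arrays, with knockout marrow on the left of each panel and wild-type marrow on the right; dashes with bars give the mean ± SD of 3 arrays, and each panel has its own axis. Il33, Il1rap, Il18 and Il22ra1 show groups that do not overlap, while knockout replicate 2 is far from replicates 1 and 3 for Il18bp and Il7r.

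In the gp130 and IL-12 group, 9 of 14 genes were tested, and their differences ran from -0.17 to 0.35. Il6st encodes gp130, the signalling chain shared by IL-6, IL-11, LIF and oncostatin M. It read 3.67, 4.15 and 3.83 with knockout marrow, against 3.72, 3.74 and 3.57 with wild-type marrow, a difference of 0.21 ± 0.18. Knockout replicate 1 lay inside the wild-type range. Il6ra, which binds IL-6 before gp130 joins, read 2.23, 2.01 and 1.65 with knockout marrow, against 2.50, 1.78 and 1.81 with wild-type marrow. The groups overlapped, and the interval of the difference ran from -0.66 to 0.52.

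Il11ra1, the IL-11 binding chain, differed by -0.17 ± 0.22. It has a near-identical copy in the mouse genome, Il11ra2, so its signal may hold both. Il27ra, the IL-27 binding chain, was the member of this group with the difference furthest from 0, at 0.35 ± 0.20. Its ligand subunit Il27 differed by 0.12 ± 0.15 and the ligand Il11 by -0.03 ± 0.19. The IL-12 receptor chains Il12rb1 and Il12rb2 differed by 0.05 ± 0.18 and 0.10 ± 0.18, and a dimmer probe of Il12rb1 by -0.48 ± 0.30. Il31ra, the IL-31 binding chain, differed by -0.15 ± 0.19. These 6 genes from Il27ra to Il31ra were named after their values were seen.

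The common gamma chain group, with the IL-4 and IL-13 receptors, had 11 of 17 genes tested but only 1 of its 7 ligands, Il15. This ligand sustains memory T cells and natural killer cells and is presented to them on Il15ra. Il15 lay at -3.89, -4.13 and -4.43 with knockout marrow, against -3.52, -4.00 and -2.72 with wild-type marrow. Knockout replicate 1 lay inside the wild-type range, and the difference was -0.73 ± 0.33 (limma, unadjusted p = 0.0568). Without wild-type replicate 3, the one high array, it was -0.39 (limma, unadjusted p = 0.179). The bright probe 2 of Il15ra read 2.70, 2.15 and 1.84 with knockout marrow, against 2.91, 2.48 and 3.06 with wild-type marrow. Again knockout replicate 1 alone reached the wild-type range, and the difference was -0.59 ± 0.26 with an interval from -1.20 to 0.02. The dim probe 1 read -0.54, -2.03 and -2.47 with knockout marrow, against -1.01, -1.87 and -0.98 with wild-type marrow, a difference of -0.39 ± 0.50. Both probes were lowest on knockout replicate 3, and on probe 1 knockout replicate 1 stood above all wild-type arrays.

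Il4ra, the chain through which IL-4 and IL-13 signal, gave opposite signs on its 2 probes. The bright probe 2 read -0.73, -0.21 and -1.13 with knockout marrow, against -0.64, -1.01 and -1.50 with wild-type marrow, a difference of 0.36 ± 0.30. On this probe the groups overlapped. The dim probe 1, which carries a TG run, read -2.56, -2.75 and -2.88 with knockout marrow, against -2.24, -2.34 and -2.22 with wild-type marrow. On this one they did not, and the difference was -0.46 ± 0.16 (limma, unadjusted p = 0.0202, adjusted p = 0.513). Its partner chain Il13ra1 read -1.85, -1.49 and -1.99 with knockout marrow, against -2.11, -1.88 and -2.18 with wild-type marrow, and differed by 0.28 ± 0.19 with overlapping groups. The IL-13 decoy receptor Il13ra2 read -2.45, -2.38 and -2.41 with knockout marrow, against -1.89, -2.34 and -2.14 with wild-type marrow. Its groups did not overlap, though wild-type replicate 2 was nearly level with the knockout arrays, and the difference was -0.29 ± 0.17.

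**Figure D4:**
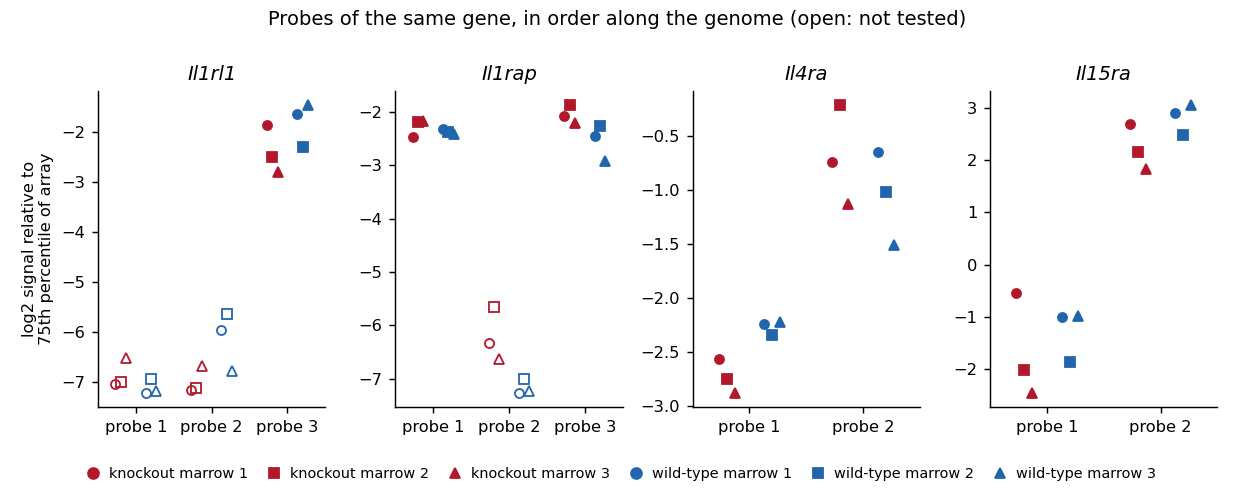
Log2 signal relative to the array's 75th percentile on every probe of Il1rl1, Il1rap, Il4ra and Il15ra, with knockout marrow to the left of wild-type marrow at each probe and open symbols for probes that were not tested. Probe 2 of Il4ra has overlapping groups and probe 1 has knockout values below all wild-type values.

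Of the 19 genes with more than 1 probe, 7 had more than 1 tested. The tested probes of 2 of these 7, Il4ra and Il12rb1, gave opposite signs. For the other five, Il15ra, Il17d, Il17rc, Il1rap and Il24, the signs were alike, and the spread between the probes' differences was 0.08 to 0.39.

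Il2rg, the common gamma chain itself, read -1.34, -1.30 and -2.69 with knockout marrow, against -1.63, -1.77 and -1.77 with wild-type marrow. Knockout replicate 3 was low and the other knockout arrays high, and the difference was -0.05 ± 0.36. Il2rb, the signalling chain shared by the IL-2 and IL-15 receptors, read -2.31, -2.70 and -2.63 with knockout marrow, against -3.33, -2.77 and -2.92 with wild-type marrow. The groups did not overlap, though knockout replicate 2 and wild-type replicate 2 were close, and the difference was 0.46 ± 0.21 (limma, unadjusted p = 0.058). Markers of natural killer and innate lymphoid cells were tested 6 of 9, with a median difference of 0.49, and their mean deviated by 0.37, -0.12 and 0.37 in knockout replicates 1 to 3, against -0.40, -0.08 and -0.14 in wild-type replicates 1 to 3. Klrd1, which encodes CD94 of natural killer cells, was higher by 0.81 at an unadjusted p of 0.00572 (limma). It read -3.95, -4.19 and -4.19 with knockout marrow, against -5.17, -5.07 and -4.52 with wild-type marrow. Wild-type replicates 1 and 2 lay under the lowest above-background signals of their arrays, -5.11 and -4.86. The other tested markers differed by 0.88 (Gzma), 0.52 (Eomes), 0.46 (Rora), 0.06 (Prf1) and -0.22 (Gata3). The defining marker Ncr1 was above background on no array. The summed level of the list ran from 4.72 to 6.86 with knockout marrow and from 3.54 to 4.45 with wild-type marrow. Rora, the brightest tested marker on every array, weighed most in that sum. The part of these cells in the Il2rb difference was not tested.

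Il7r, the receptor of the lymphocyte survival factor IL-7, had the widest spread of the group. It read -1.69, 0.66 and -2.47 with knockout marrow, against -0.57, -2.11 and -2.24 with wild-type marrow. The value of knockout replicate 2 was the highest, and without that array the difference of 0.47 ± 0.81 became -0.44. The IL-9 receptor chain Il9r read -2.74, -2.20 and -1.74 with knockout marrow, against -1.72, -1.45 and -1.80 with wild-type marrow, a difference of -0.57 ± 0.26 with overlapping groups. Il2ra differed by -0.15 ± 0.39 and the IL-21 receptor Il21r by -0.04 ± 0.24. Il2ra is the chain that gives the IL-2 receptor high affinity. Il2ra and Il9r are members outside the set chosen for naming, and were picked after their values were seen.

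The common beta chain group had 3 of 4 genes tested. Il3ra, the IL-3 binding chain, read 1.88, 1.74 and 1.38 with knockout marrow, against 1.52, 1.64 and 1.29 with wild-type marrow. The groups overlapped, and the difference was 0.18 ± 0.19. The IL-5 binding chain Il5ra and the ligand Il3 had intervals from -0.57 to 0.89 and from -0.76 to 0.26.

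In the IL-10 family, 10 of 11 genes were tested, including all 5 ligands. Il22ra1, the IL-22 binding chain of epithelial cells, had the smallest p among the members. It read -1.17, -1.02 and -0.70 with knockout marrow, against -1.54, -1.40 and -1.89 with wild-type marrow, and the groups did not overlap. The means were -0.96 ± 0.24 with knockout marrow and -1.61 ± 0.25 with wild-type marrow (SD, n = 3 each), and the difference was 0.64 ± 0.20, which is 1.56-fold higher (limma, unadjusted p = 0.0141, adjusted p = 0.486). Without wild-type replicate 3 the unadjusted call ended (limma, unadjusted p = 0.0609). A second probe of Il22ra1 was above background on 1 knockout and 0 wild-type arrays and was not tested. That probe read -4.56, -6.85 and -5.75 with knockout marrow, against -5.53, -6.89 and -5.60 with wild-type marrow, with overlapping groups. The ligand Il22 differed by 0.15 ± 0.17, and the soluble IL-22 binding protein Il22ra2 by -0.05 ± 0.32.

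Il10, which restrains macrophages, read -3.65, -4.07 and -4.42 with knockout marrow, against -3.80, -3.98 and -3.94 with wild-type marrow. The knockout values spread to both sides of the wild-type values, and the interval of the difference ran from -0.65 to 0.37. Its receptor chains Il10ra and Il10rb differed by -0.23 ± 0.23 and -0.23 ± 0.24. The knockout arrays of Il10ra read 0.22, 0.33 and -0.36, against 0.56, 0.11 and 0.22 on the wild-type arrays, and the groups overlapped. Il10rb, which also serves the IL-22 receptor, read 0.16, 1.02 and 0.41 with knockout marrow, against 0.86, 0.64 and 0.78 with wild-type marrow. Here knockout replicate 2 was the highest array and replicates 1 and 3 the lowest. Il20, an epithelial cytokine, read -3.03, -3.10 and -3.25 with knockout marrow, against -2.73, -2.99 and -3.00 with wild-type marrow. The gap between its groups was small, and the difference was -0.22 ± 0.16. The other ligands, Il19 and Il24, differed by -0.07 ± 0.16 and -0.10 ± 0.22, and the IL-20 receptor chain Il20rb by 0.06 ± 0.15.

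The IL-17 family had 8 of 11 genes tested, with differences from -0.13 to 0.33. Il17ra, the chain common to IL-17 receptors, read -2.24, -1.89 and -2.67 with knockout marrow, against -2.55, -2.52 and -2.71 with wild-type marrow. Knockout replicate 3 lay inside the wild-type range, and the difference was 0.33 ± 0.22. Il17rc, its partner for IL-17A and IL-17F, differed by 0.06 ± 0.16 on the bright probe and by 0.21 ± 0.16 on a dimmer one. The T cell cytokines Il17a and Il17f differed by 0.01 ± 0.35 and 0.12 ± 0.20. The ligands Il17b and Il17d differed by 0.18 ± 0.29 and 0.11 ± 0.16. Il17rd, a receptor chain also known as Sef, read -0.65, -0.43 and -0.44 with knockout marrow, against -0.35, -0.36 and -0.42 with wild-type marrow. Its groups lay close together without overlap, with a difference of -0.13 ± 0.15.

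Of the members outside these families, Il16, a ligand of CD4, read 0.07, 0.01 and 0.14 with knockout marrow, against 0.55, 0.26 and 0.25 with wild-type marrow. The groups did not overlap, and the difference was -0.28 ± 0.16 (limma, unadjusted p = 0.115). Il34, a ligand of the macrophage growth receptor Csf1r, read -0.67, -2.30 and -2.33 with knockout marrow, against -0.62, -1.57 and -1.06 with wild-type marrow. Knockout replicate 1 lay with the wild-type arrays, and the difference was -0.68 ± 0.47 with an interval from -1.78 to 0.42. Il4i1 differed by 0.10 ± 0.20.

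Several members varied from array to array as the markers of a cell type did. Which list stands beside which member was chosen after their values were seen. White adipocyte markers were tested 11 of 11, with 0 of them on no array, and their summed level ran from 71.1 to 739 times the 75th percentile with knockout marrow and from 424 to 877 with wild-type marrow. Of these markers 10 were lowest on knockout replicate 3, while Lep was highest there and differed by 0.60. Brown adipocyte markers were tested 9 of 9, with 0 on no array. Their mean deviated by 1.33, -1.43 and -2.48 in knockout replicates 1 to 3, against 1.10, 0.26 and 1.22 in wild-type replicates 1 to 3. Il15ra, Il34 and Il1rl1 were lowest on knockout replicates 2 and 3 and near the wild-type arrays on knockout replicate 1. The means of both fat lists were too. Without those 2 knockout arrays the difference was -0.12 for Il15ra, -0.06 for Il1rl1 and 0.42 for Il34, with the lone knockout array assumed to vary like the others. On the same comparison Il33 stood at -0.26 and Il22ra1 at 0.44. Immature thymocyte markers, tested 9 of 9 with 0 on no array, were low on the same 2 arrays, with deviations of 0.55, -1.17 and -0.73 in knockout replicates 1 to 3, against 0.46, 0.36 and 0.53 in wild-type replicates 1 to 3. Their summed level ran from 1.77 to 12.5 with knockout marrow and from 5.88 to 15.9 with wild-type marrow. Most of that range came from Cd1d1, which read 3.27, -0.33 and -1.81 with knockout marrow, against 3.17, 1.67 and 3.75 with wild-type marrow. Dntt varied less, at 0.60, -1.30 and -0.50 with knockout marrow, against 0.41, 0.29 and 0.26 with wild-type marrow. The part of fat cells and of immature thymocytes in these results was not tested.

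Mast cell markers varied as Il1rl1 did. Mast cells are known to carry ST2. They were tested 6 of 8, and their mean deviated by 0.22, -0.55 and -0.45 in knockout replicates 1 to 3, against 0.43, -0.11 and 0.48 in wild-type replicates 1 to 3. The median difference was -0.45, and Cpa3, the mast cell carboxypeptidase, was lower, with a difference of -0.99 (limma, unadjusted p = 0.0262). Their summed level ran from 4.08 to 6.99 with knockout marrow and from 6.17 to 7.51 with wild-type marrow, with Ms4a2 on no array. The part of mast cells in the Il1rl1 difference was not tested.

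Macrophage markers were tested for 10 of 12 names, with 0 of the tested names on no array, and their mean deviated by 0.01, 0.77 and -0.57 in knockout replicates 1 to 3, against 0.25, -0.45 and -0.01 in wild-type replicates 1 to 3. Il18bp and Il7r were highest on knockout replicate 2, where the mean and 7 of the 10 tested markers were highest. The summed level, which the brightest marker Itgam dominates, did not follow this order and was highest on knockout replicate 3. It ran from 151 to 179 with knockout marrow and from 106 to 137 with wild-type marrow. At an unadjusted p under 0.05 (limma) 1 macrophage marker was higher and 0 were lower. This was Lyz2, with a difference of 1.64 (limma, unadjusted p = 0.0194). Lyz2 read 1.19, 3.19 and 1.40 with knockout marrow, against 0.98, -0.25 and 0.15 with wild-type marrow, without overlap. T cell markers had 11 of 12 names tested. Their mean deviated by 0.28, -0.31 and -0.11 in knockout replicates 1 to 3, against -0.01, 0.14 and 0.01 in wild-type replicates 1 to 3. Their summed levels were 13.3 to 17.5 with knockout marrow and 14.4 to 18.3 with wild-type marrow. The part of macrophages and T cells in these results was not tested.

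Mesothelial markers, tested 7 of 7 with 0 on no array, deviated by 1.24, -1.30 and 0.50 in knockout replicates 1 to 3, against 0.43, -1.39 and 0.52 in wild-type replicates 1 to 3. Their summed level ran from 8.46 to 22.0 with knockout marrow and from 11.2 to 13.5 with wild-type marrow. Il18r1 was low on replicate 2 of both groups, where the mean of these markers was low. Krt18 was an exception, at 3.18 on wild-type replicate 2, its highest array, and at 2.64 on knockout replicate 2. Il17re, the IL-17C receptor chain of epithelia, is a member outside the set chosen for naming. It read -0.42, -2.18 and -0.92 with knockout marrow, against -1.02, -1.86 and -1.05 with wild-type marrow. It too was lowest on replicate 2 of both groups. The part of mesothelial cells in these results was not tested.

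**Figure D5:**
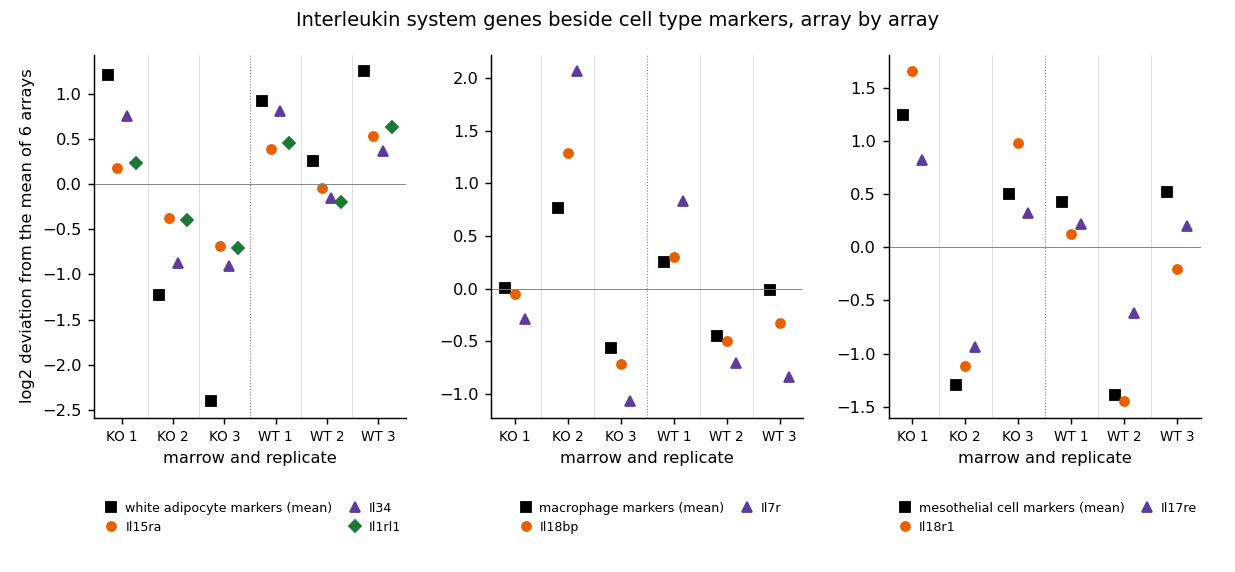
Deviation of each array from the mean of the 6 arrays (log2) for the mean of a marker list (squares) and for members of the interleukin system (other symbols), with the 3 knockout marrow arrays (KO) left of the 3 wild-type marrow arrays (WT). In the left panel knockout replicates 2 and 3 are low, in the middle panel knockout replicate 2 is high, and in the right panel replicate 2 of both groups is low.

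Downstream of the receptors, 107 genes in 7 lists were examined, of which 94 were tested. Of these, each read on its brightest tested probe, 0 passed the adjusted test (limma), 4 were higher and 3 lower at an unadjusted p under 0.05, where 4.44% and 4.27% of all probes were, and the median difference was 0.05. All 4 higher genes belonged to the list of IL-1 and IL-17 signalling adaptors and kinases, which had 21 genes tested, 0 of them lower, and a median of 0.05 against 0.02 over all probes.

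Nfkbiz, an NF-kappaB cofactor induced by IL-1 and IL-17, read -2.15, -1.94 and -2.37 with knockout marrow, against -2.81, -2.84 and -2.71 with wild-type marrow. The groups were clearly apart, and the difference was 0.64 ± 0.17 (limma, unadjusted p = 0.00644, adjusted p = 0.445). Myd88, the adaptor of the IL-1 receptor family, read 1.56, 1.72 and 1.54 with knockout marrow, against 1.23, 1.18 and 1.01 with wild-type marrow. These groups did not overlap either, with a difference of 0.46 ± 0.15 (limma, unadjusted p = 0.0175). Traf3ip2, the adaptor of the IL-17 receptors, differed by 0.61 ± 0.23. Nfkb1, the p50 subunit precursor, differed by 0.61 ± 0.19 on its bright probe and by -0.10 ± 0.19 on a second probe. With each array left out in turn, Nfkbiz kept its unadjusted call. Nfkb1 lost it without wild-type replicate 3, Myd88 without knockout replicate 2 or wild-type replicate 3, and Traf3ip2 without knockout replicate 2 or wild-type replicate 1 or 3.

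The list of Janus kinases and STAT factors had 15 genes tested, 0 higher and 1 lower at an unadjusted p under 0.05. Stat5a, which relays signals of the common gamma and beta chain receptors, read 1.30, 0.55 and 0.48 with knockout marrow, against 1.69, 1.75 and 2.14 with wild-type marrow. The groups did not overlap, and knockout replicate 1 was the nearest to the wild-type arrays. The difference was -1.08 ± 0.26 (limma, unadjusted p = 0.00348, adjusted p = 0.42), and the unadjusted call was kept with each array left out in turn. Its paralog Stat5b differed by -0.27 ± 0.15, Tyk2 by 0.29 ± 0.17 and Jak3, the kinase bound to the common gamma chain, by -0.43 ± 0.32.

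The SOCS feedback inhibitors had 8 genes tested, 0 higher and 2 lower at an unadjusted p under 0.05. Cish, a target of STAT5, read 1.51, -1.23 and -1.14 with knockout marrow, against 2.51, 1.44 and 1.37 with wild-type marrow. Knockout replicate 1 lay inside the wild-type range, and the difference was -2.06 ± 0.72 (limma, unadjusted p = 0.0233). Socs2 differed by -0.41 ± 0.17 on its brightest probe and by -0.43 to -0.60 on its 3 other tested probes, and its unadjusted call held only without wild-type replicate 3 when 1 array was left out. Socs5 differed by -0.32 ± 0.17, with all knockout arrays below the wild-type arrays, and Socs4 by 0.24 ± 0.17. For Stat5a and Cish, as for the fat markers, the lowest arrays were knockout replicates 2 and 3. Without both arrays the difference was -0.56 for Stat5a and -0.26 for Cish, with 1 knockout array left. Since these arrays were the lowest for both genes, leaving them out could only bring the knockout mean up. On the same comparison Socs2 stood at -0.51, Nfkbiz at 0.64, Traf3ip2 at 0.50, Myd88 at 0.42 and Nfkb1 at 0.38. With 1 array left out at a time, Cish lost its unadjusted call without knockout replicate 2 or 3, or wild-type replicate 1.

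In the other lists 0 genes passed the unadjusted threshold on their brightest tested probe, in either direction. In the inflammasome list, with 9 genes tested and a median of 0.15, Nlrp1b differed by 0.46 ± 0.30, Mefv by 0.52 ± 0.37, Pycard by 0.15 ± 0.17 and Txnip by -0.37 ± 0.36. A second probe of Txnip had the opposite sign, 0.28 ± 0.36, and one of Mefv differed by 0.07 ± 0.38. Among shared chains and related cytokines, with 15 tested and a median of 0.14, the LIF receptor Lifr differed by -0.47 ± 0.20, Cntfr by -0.56 ± 0.27, oncostatin M, Osm, by 0.34 ± 0.19 and the common beta chain Csf2rb by 0.85 ± 0.50. Other probes of Lifr differed by -0.57 ± 0.28 and 0.07 ± 0.18, and one of Csf2rb by 0.43 ± 0.25. Among 16 acute-phase and NF-kappaB targets, with a median of 0.30, Fos differed by 0.72 ± 0.36, Junb by 0.30 ± 0.21, Cxcl5 by 0.31 ± 0.29 and Hp by -1.06 ± 0.86. Among 10 targets of type 2 signalling, with a median under 0.01, Muc1 differed by -0.32 ± 0.15, Ccl11 by -0.93 ± 0.55, Retnla by -0.81 ± 0.59 and Pdcd1lg2 by 0.21 ± 0.15. A second, dimmer probe of Pdcd1lg2 differed by 0.47 ± 0.17 with groups that did not overlap (limma, unadjusted p = 0.0243).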

How the data were processed

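Per the file headers, the deposited files come from Agilent Feature Extraction 10.7.3.1, with 1 colour and an mm9 design. The processed signal in them is a linear intensity that the authors' scanner software had background-subtracted, detrended and floored with surrogates, without normalization between arrays. The authors' series table repeats it to within 0.497% and served as an alternative. Here log2 intensity minus each array's 75th percentile was computed, with no pseudocount, without outlier spots and as the mean over a probe's spots. The 38341 of 55681 probes above background (the software's own flag) on every array of a group were fitted with lmFit and eBayes of limma 3.58.1 in R 4.3.3, two-sided, Benjamini-Hochberg adjusted, threshold 0.05. The brightest tested probe stands for a gene.

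Names matched RefSeq by accession for 95 member probes and by symbol for 7, and 1 gene of the name pattern is not reported here. Named members were those with unadjusted p under 0.05, any probe on all arrays of one group and on none of the other (0 found), a listed set of 30 genes where tested (25), and the 5 brightest, 27 in all, plus the 4 smallest p of each pathway list. The other tested members are named to complete their families. Members and lists were chosen with earlier results of these data known. For a gene below background throughout a group and on part of the other group's arrays, no fold is given.

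Slide and scan were common to the 6 arrays. Wild-type arrays occupied row 1 of the slide and knockout arrays row 2, so row and group cannot be told apart. The 17 alternatives covered background correction, scaling, filter, value source, replicate block, variance model, array weights, probe choice and arrays left out. Tested on simulated data (5 runs of 38341 probes, 200 shifted), the fit recovered 24.8% of log2 shifts of 1, 74% of 2, 93.2% of 3 and 99.2% of 5. The number of arrays limits precision. Whether a probe lies in an exon, intron or UTR was not analysed here.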

Additional observations from a re-analysis of the deposited data

How the results depend on the processing

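Adjusted calls stayed at 0 under all 17 alternatives, for the interleukin genes and for the pathway genes, and the smallest adjusted p of any named gene was 0.0845 (limma). The median difference of the interleukin genes ran from -0.03 to 0.05 with 1 array left out at a time. Counts at an unadjusted p under 0.05 (1 higher and 1 lower as reported) moved with the setting. The higher count was 2 without the filter on dim probes, with only probes above background on all 6 arrays, with median scaling, quantile normalization, normexp, trended robust variance and array weights. The lower count was 2 with median scaling and with trended robust variance, and 5 with array weights. Leaving out 1 array gave 0 to 4 higher and 0 to 5 lower: 5 lower without knockout replicate 1, 4 without wild-type replicate 2, and 0 without wild-type replicate 1 or 3. The share of all probes called was counted only for the fit as reported. The counts under the other settings therefore cannot be set against an array-wide share, and say nothing particular about the interleukin genes. Leaving out knockout replicates 2 and 3, with 1 knockout array left, gave a median difference of 0.13, against 0.04 over all probes.

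The replicate numbers did not pair the arrays: the correlation of same-numbered deviations was 0.12, 0.05 and -0.28, and the replicate block gave 3 higher and 1 lower. The slide and the scan could not be fitted as blocks, since all arrays share both.

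Of 932 gene and setting pairs, 898 kept their direction and 34 reversed, in 18 of 55 named genes. The threshold used here was that of the adjusted p, which no named gene passed under any setting. Unadjusted calls are not covered by these numbers and moved as given above. Without knockout replicates 2 and 3 the reversed values were -0.15 for Il1b, -0.51 for Il1r1, 0.20 for Il6ra, -0.0012 for Il6st, 0.25 for Il10, 0.38 for Il2rg, -0.0517 for Il7r, 0.42 for Il34, 0.36 for Il21r, -0.0087 for Il17rc, 0.31 for Jak3, -0.015 for Pycard, 0.21 for Txnip, 1.08 for Hp, 0.35 for Retnla and 0.014 for Ccl11. The mean of all probes gave -0.0503 for Il4ra, normexp 0.0058 for Il2rg and quantile normalization 0.011 for Il21r. Leaving out 1 array gave -0.16 to 0.31 for Il1b, -0.0727 to 0.39 for Il1r1, -0.21 to 0.79 for Il18bp, -0.20 to 0.17 for Il6ra, -0.34 to 0.0475 for Il10, -0.29 to 0.41 for Il2rg, -0.44 to 1.13 for Il7r, -0.24 to 0.22 for Il21r and -0.0390 to 0.13 for Il17rc. Leaving out 1 array moved the difference by over 1.5 times for 24 of the 27 named interleukin genes (not for Il22ra1, Il33 and Il15ra) and for 18 of the 28 named pathway genes. The cause was not tested.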
